A study of Homo sapiens with 4 samples.

Results

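Histone lysine methyltransferases place methyl groups on lysines of the histone tails, and histone demethylases remove them. Methylation of H3K4 marks promoters and enhancers, methylation of H3K36 marks transcribed gene bodies, and methylation of H3K27 by Polycomb repressive complex 2 (PRC2) marks silenced genes. The mRNAs of these enzymes can themselves carry a methyl mark, N6-methyladenosine (m6A), which the METTL3/METTL14 complex writes mostly in the DRACH sequence context, with GGAC as a frequent core. m6A in mRNA is known to be dense near stop codons and in long exons.

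The members were taken by symbol. They were the protein-coding genes of GENCODE version 44 whose symbol starts with KMT, KDM, SETD or PRDM followed by a digit, together with NSD1, NSD2, NSD3, EZH1 and EZH2. This gave 57 genes of 20046. The rule uses no measured value. The set holds SET domain methyltransferases, the LSD and JmjC demethylases and the PRDM zinc finger proteins, several of which have no known enzyme activity.

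The m6A peaks came from meRIP-seq of OE-19 cells, an established line of adenocarcinoma of the esophagogastric junction (AEG), untreated and grown in RPMI1640 with serum. RNA fragments bound by an anti-m6A antibody were sequenced, and regions where they pile up were called as peaks. The series held 2 m6A immunoprecipitation (IP) samples and 2 input samples, labelled replicate 1 and 2 of each. One list of peaks per IP replicate was used, and peak lists of the input were not analysed here. The labels do not say whether the replicates were separate cultures, while the study calls them biological replicates. Replicate 1 held 24607 peaks and replicate 2 held 19318 peaks, of which 18488 and 12003 had the summit in an exon of a protein-coding gene. The lists carry no read numbers, so the depth is unknown. Of 6 epithelial marker genes only CDH1 had a peak in both replicates, and of 4 markers of other cell types none did, with a single peak in COL1A1 in replicate 1. A peak list carries no expression level, so these counts do not check the cell type. For the same reason an mRNA without m6A and an mRNA that is not expressed cannot be told apart.

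The strength of a peak is given below as its fold enrichment, the ratio of IP signal at the summit to the background that the peak caller estimated. A peak was counted for a gene when its summit lay in an exon. Peaks of the 2 replicates that were each other's largest overlap formed a shared pair.

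Sequence under the strongest shared pairs is shown first, to place the marks on the mRNAs. For the 20 members whose strongest shared pair had the highest geometric mean of both fold enrichments, the GGAC nearest to the summit of replicate 1 was looked for within 50 nt on the strand of the gene. Of these 20 members only 9 had the motif, and these are shown. The others, among them KMT5B, NSD3 and SETD2, had no GGAC within 50 nt. KDM6A was added as the JmjC demethylase with the strongest pair that had the motif. Each line gives 25 nt of hg38 with the motif in capitals.
SETD5, chr3:9470617-9470641, plus strand, CDS in exon 20: aagtggagatGGACatcagaccctc
PRDM16, chr1:3434103-3434127, plus strand, 3′ UTR in exon 17: gtgggcaggtGGACgctctgctgag
NSD1, chr5:177135597-177135621, plus strand, CDS in exon 2: attctgaaatGGACccagaacagcc
PRDM4, chr12:107751779-107751803, minus strand, CDS in exon 5: agacgctgtaGGACatggtggtgtg
SETD1A, chr16:30979519-30979543, plus strand, CDS in exon 14: gctgagccagGGACagaggtggacc
KMT5C, chr19:55347583-55347607, plus strand, 3′ UTR in exon 9: gggttggtttGGACacccccaggga
KMT2E, chr7:105112547-105112571, plus strand, CDS in exon 27: aacagttccaGGACaccacgtgact
SETD1B, chr12:121819650-121819674, plus strand, CDS in exon 11: cacctgcagtGGACtcgttgggcat
PRDM11, chr11:45227708-45227732, plus strand, CDS in exon 8: gggaagggctGGACccccggggtag
KDM6A, chrX:45063592-45063616, plus strand, CDS in exon 17: tttggccaatGGACccttttctgca

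In SETD1B the A of the motif lay 2 nt from the summit of replicate 1, in SETD5 3 nt and in PRDM4 39 nt. All 10 motifs lay inside the peak of replicate 2 as well. In PRDM16 the letter after GGAC is G, so that motif, unlike the others shown, does not match the full DRACH context. The median member peak was 364 bp wide in replicate 1 and 395 bp in replicate 2, so these letters do not show which A is methylated.

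To see how many of these mRNAs carried a peak, each replicate was counted on its own. An exonic peak was found in 43 of the 57 members in replicate 1 and in 39 in replicate 2. All 39 were also among the 43. Among all protein-coding genes, both replicates placed an exonic peak in 33.4%, replicate 1 in 42.4%, replicate 2 in 34.1% and either in 43.1%. Members have long mRNAs, and long genes more often carry a peak. When each member was given the share of other protein-coding genes of its exon length, in 20 bins of union exon length, the bins gave 24.9 members with a peak in both replicates. The 39 observed members were 1.57 times that number. The ratio was 1.43 for replicate 1 alone and 1.53 for replicate 2 alone. The bins cover length and not expression, and no test was made over genes.

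**Figure D1:**
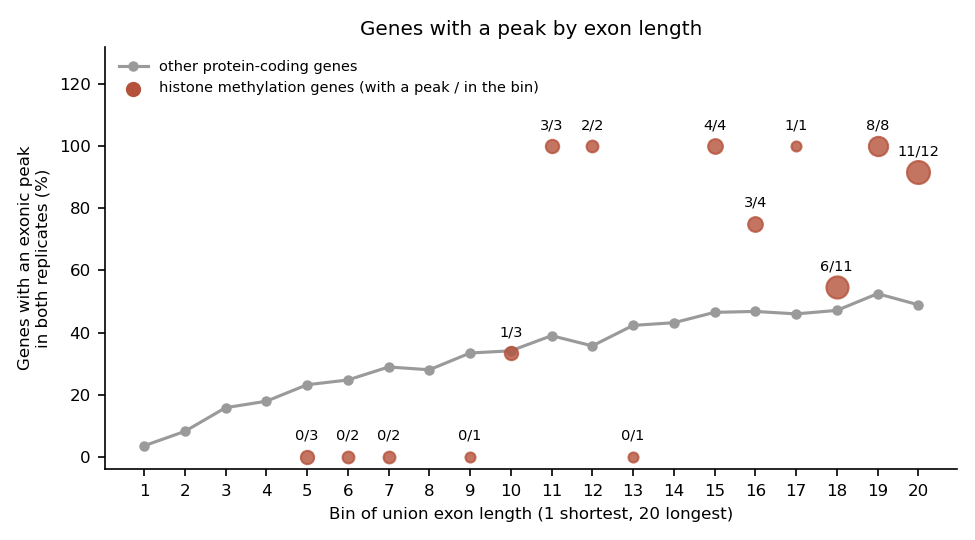
The x axis gives 20 bins of union exon length from the shortest to the longest genes, and the y axis gives the percent of genes with an exonic peak in both replicates. Grey points are all other protein-coding genes and red points are the histone methylation genes, with the number carrying a peak over the number in the bin. In the 9 shortest bins 0 of 8 members carried such a peak, and in bins 19 and 20 they were 8 of 8 and 11 of 12.

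The members with and without a peak differed in length. The 39 with a peak in both replicates had a median union exon length of 10933 nt (range 4026 to 53322 nt), and the 14 without any exonic peak had a median of 3459 nt (2339 to 10774 nt). In the 20th bin 48.9% of the other genes had a peak in both replicates, against 11 of 12 members. In the 19th bin the values were 52.5% and 8 of 8, and in the 18th they lay closer, at 47.1% and 6 of 11.

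The members without an exonic peak included EZH2, SETD9, KDM1B, KDM4D, KDM4E, KDM4F, KDM5D, PRDM6, PRDM7, PRDM9, PRDM12, PRDM13 and PRDM14. PRDM9 sets meiotic recombination hotspots and PRDM14 acts in germ cells. PRDM7 is a near copy of PRDM9, and KDM4D, KDM4E and KDM4F resemble each other, so reads that fit several copies may be lost or split there. EZH2, the main catalytic subunit of PRC2, stood out by length. It has 10774 nt of union exon sequence, but no exon of its transcript with the longest CDS (coding sequence) is above 324 nt. KDM1B, a flavin-dependent demethylase, likewise has no exon above 304 nt there.

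In 4 members the only exonic peak was in replicate 1. KMT5A, which monomethylates H4K20, had a fold enrichment of 4.09 at codon 342 of 352. SETD4 had 3.93 and KDM1A, the LSD1 demethylase, had 2.38. KDM4C, a demethylase of H3K9 and H3K36, had 4.81 in an exon outside the transcript with the longest CDS. This KDM4C peak overlapped a peak of replicate 2 at 3.55, the summit of which fell in an intron, so the gene missed the count by the place of the summit. The KMT5A summit resembled places on chromosomes 2 and 13 at 98.7% and 98.3% identity, and the KDM1A summit a place on chromosome 5 at 93.4%, so reads there may come from copies.

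Next, the roles were compared. All 8 genes of the H3K4 methyltransferase family and all 4 of the H3K36 family had a peak in both replicates, where the length bins gave 3.91 and 1.96. Of the 18 JmjC demethylases 13 had one (bins 7.86), and of the 15 PRDM genes 8 did (bins 6.07). The H4K20 methyltransferases had 2 of 3 (bins 1.202), the other SETD genes 3 of 5 (bins 2.03), and the H3K27 methyltransferases 1 of 2 (bins 0.936). Neither of the 2 LSD demethylases had one (bins 0.912).

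**Figure D2:**
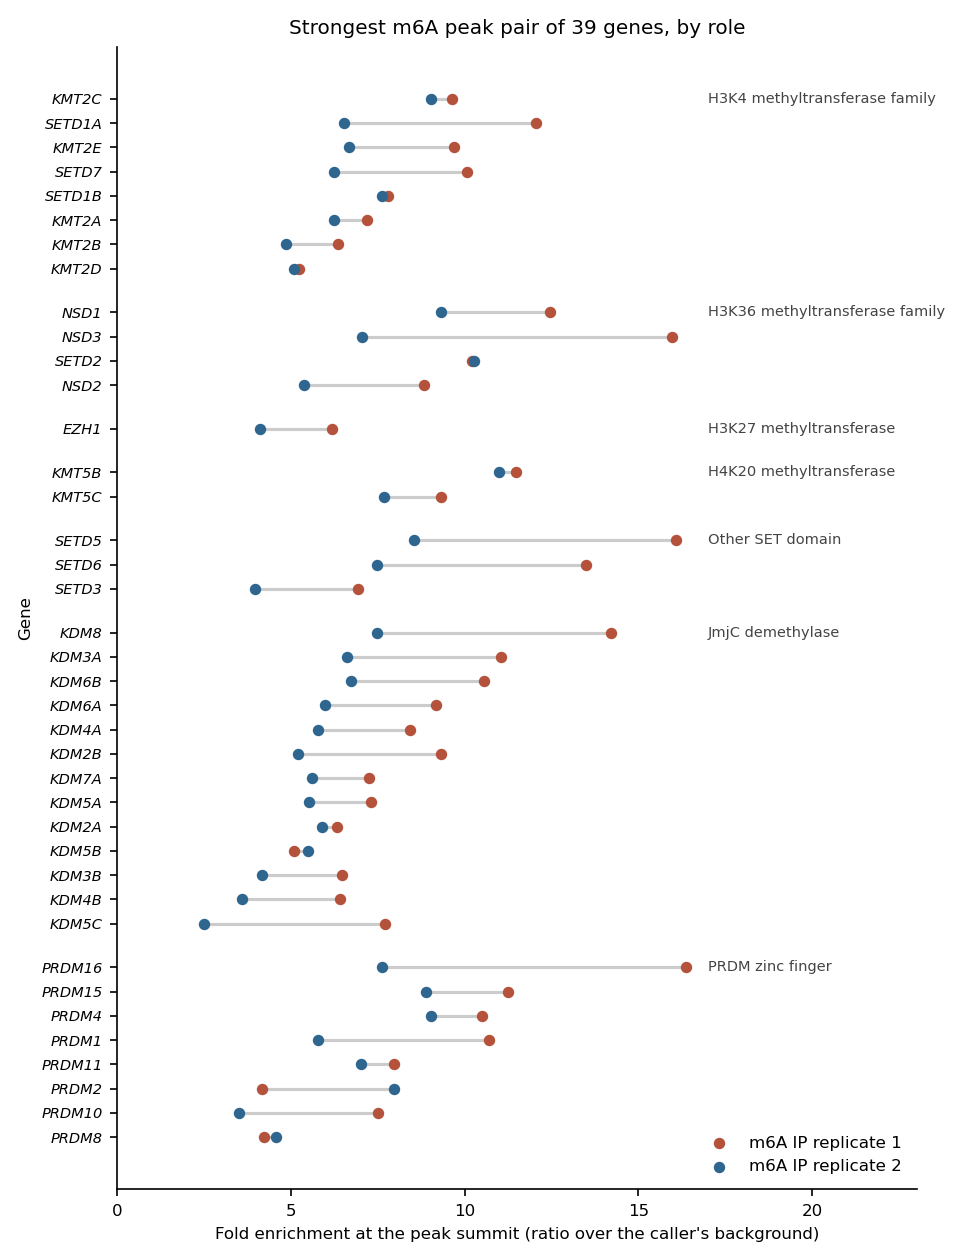
The x axis gives fold enrichment (the ratio to the caller's background) for the strongest shared pair of each of 39 genes, grouped by role. Red points are m6A IP replicate 1 and blue points replicate 2, and grey lines join them. Replicate 1 was higher in 35 of the 39 genes.

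The H3K4 methyltransferase family carried the most peaks, 65 in replicate 1 and 45 in replicate 2, which formed 42 of the 111 shared pairs of all members. These totals are not scaled by length. The 8 genes had a median union exon length of 13806.5 nt, against 9463 nt over all members. KMT2D, which methylates H3K4 at enhancers, had 12 and 11 peaks and 10 shared pairs. Only 2 protein-coding genes had more shared pairs. Its pairs spread over 9 exons, 8 of them of 400 nt or more, and were weak. The strongest was in exon 49 with 5.24 in replicate 1 and 5.10 in replicate 2, and the weakest in exon 32 with 3.01 and 1.80. The exon 56 summit of replicate 2 also lay in another gene without a name.

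SETD1B, the catalytic subunit of a COMPASS complex, had 15 and 8 peaks and 8 shared pairs over 8 exons. Its strongest pair was in exon 11 at codon 1225 of 1966, with 7.78 in replicate 1 and 7.62 in replicate 2. Its paralog SETD1A had 4 pairs. The strongest of them lay in exon 14 with 12.04 and 6.53, and another in exon 7 with 9.39 and 7.97.

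KMT2A and KMT2C had 7 shared pairs each. In KMT2A, the MLL gene rearranged in leukemia, 4 of the 7 lay in exon 28, an exon of 4249 nt, 1 in the last exon and 2 in exon 4, where an overlapping gene without a name makes the assignment uncertain. The strongest KMT2A pair was in exon 28 at codon 2259 of 4005, with 7.18 and 6.25. KMT2C, the partner of KMT2D at enhancers, had its strongest pair in exon 14 with 9.62 and 9.03. This summit resembled a place on chromosome 21 at 99.0% identity in replicate 1 and 98.3% in replicate 2, so reads may be shared with the copy. The next KMT2C pair, in exon 43, had 8.61 and 7.55.

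KMT2B had 3 shared pairs, the strongest at codon 214 of 2715 with 6.37 and 4.85. KMT2E had 2, the stronger in exon 27 with 9.70 and 6.66. SETD7, which monomethylates H3K4 and proteins other than histones, had 1 pair 22 nt past the stop codon, with 10.1 and 6.24.

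**Figure D3:**
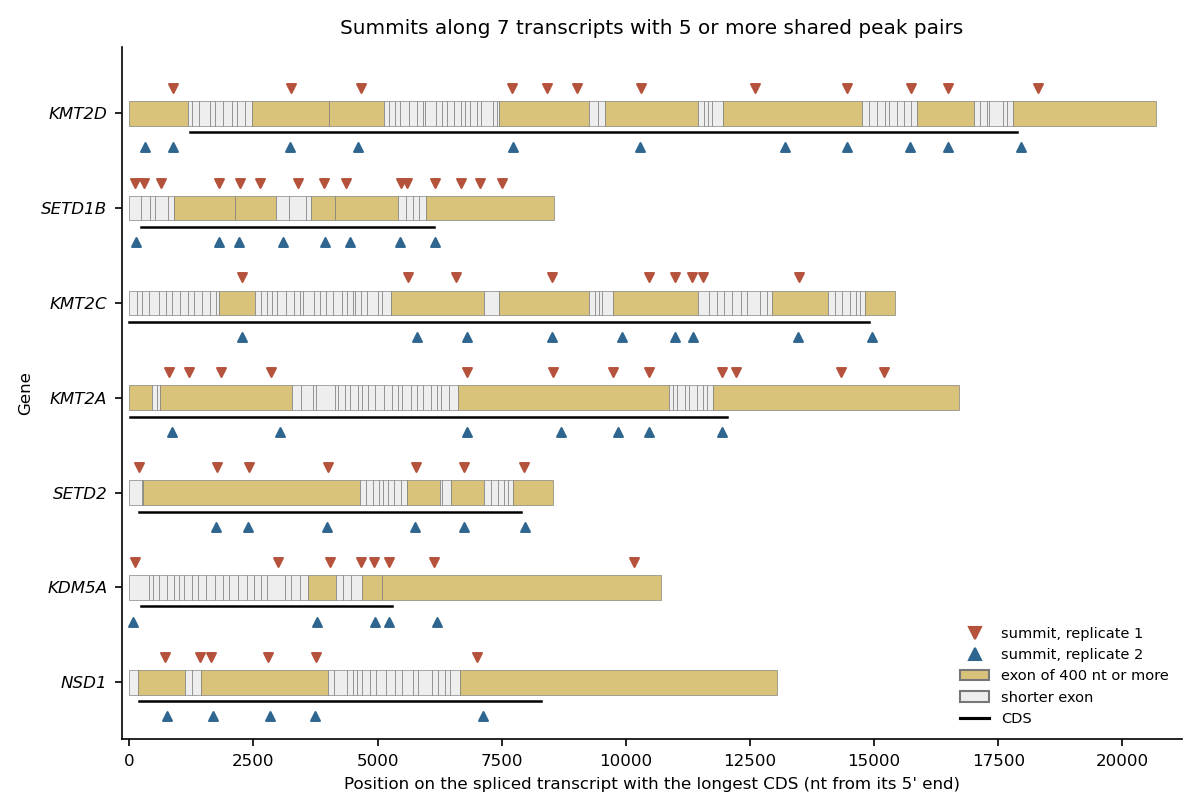
The x axis gives the position in nt from the 5′ end of the spliced transcript with the longest CDS, for the 7 genes with 5 or more shared pairs. Boxes are exons, filled where they have 400 nt or more, the black line is the CDS, and triangles are summits of replicate 1 (above) and replicate 2 (below). In KMT2D, the topmost gene, 8 of the 9 exons with a shared pair have 400 nt or more.

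The H3K36 methyltransferases had 25 and 18 peaks and 18 shared pairs. The median strongest pair of the 4 genes was 11.3 in replicate 1 and 8.19 in replicate 2, against 8.70 and 6.39 for the H3K4 family. These are medians over 4 and 8 genes. The families overlapped, with ranges in replicate 1 of 8.84 to 15.95 and 5.24 to 12.04.

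SETD2, the trimethylase of H3K36 and a tumour suppressor, had 6 pairs in exons 3, 12, 15 and 21. Its exon 12 pair was alike in the replicates, with 10.2 and 10.3. Its exon 21 pair, 62 nt past the stop codon, was not. It had 22.4 in replicate 1, the highest value of any member peak, and 3.73 in replicate 2, so the strength of this peak rested on replicate 1.

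NSD1 had 5 pairs, in exons 2, 5 and 23. The pair in exon 2 lay at codon 175 of 2696, with 12.4 and 9.33, and a pair in exon 5 had 10.8 and 10.1. NSD3 had 4 pairs, with 16.0 and 7.04 in exon 2. A stretch of chromosome 17 resembled 3 of the NSD3 summits of replicate 1 at 91.9% to 93.7%. NSD2, activated by translocation in myeloma, had 3 pairs, the strongest 95 nt past the stop codon with 8.84 and 5.39.

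Among the other methyltransferases, KMT5B, which makes the higher H4K20 methyl states, had 3 pairs. The strongest reached 11.5 and 11.0 at codon 717 of 885, the highest replicate 2 value of the set. KMT5C, which acts on the same residue, had 1 pair with 9.33 and 7.67 at 178 nt past the stop codon. EZH1, the second catalytic subunit of PRC2, had 1 pair far into its 3′ UTR, 1914 nt past the stop codon, with 6.17 and 4.11.

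SETD5 ranked first by the geometric mean, with 16.1 in replicate 1 and 8.55 in replicate 2. The pair lay in exon 20 of 24, an exon of 471 nt, at codon 998 of 1474. SETD5 also had pairs in exons 21 and 24, the latter with 9.14 and 8.61. SETD6, which methylates the NF-κB subunit RELA, had 1 pair with 13.5 and 7.46 at codon 415 of 473. SETD3, the actin histidine methyltransferase, had 1 pair with 6.93 and 3.98.

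The JmjC demethylases had 39 and 27 peaks and 25 shared pairs in 13 genes. Their strongest pairs were lower than those of the H3K4 and H3K36 families, with medians of 7.70 in replicate 1 (range 5.10 to 14.2) and 5.60 in replicate 2 (2.49 to 7.49). A strongest pair is picked from all pairs of a gene, and these genes had fewer to pick from. The H3K4 family had 42 pairs in 8 genes and the H3K36 family 18 in 4. KDM8 was at the top with 14.2 and 7.49, in an exon outside the transcript with the longest CDS. The H3K9 demethylase KDM3A followed with 11.0 and 6.61 at codon 406 of 1321, and KDM3B had 3 pairs, the strongest with 6.47 and 4.17.

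The H3K27 demethylases both carried peaks. KDM6B had 1 pair in exon 11, of 2183 nt, with 10.6 and 6.72, and the summits of the replicates fell on the same base. KDM6A had 2 pairs, the stronger with 9.17 and 5.98 at codon 619 of 1453.

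In the KDM5 family of H3K4 demethylases, KDM5A had 5 pairs, which included exon 1 in the 5′ UTR, and its strongest had 7.30 and 5.52. KDM5B had 5.10 and 5.48 at 32 nt past the stop codon. KDM5C had 7.70 and 2.49, among the widest gaps between the replicates. KDM2A, a demethylase of H3K36, had 4 pairs, the strongest with 6.34 and 5.89, and its paralog KDM2B had 1 with 9.33 and 5.20. The KDM2B summit also lay in an exon of RNF34, and the KDM4A pair (8.44 and 5.78) in an exon of KDM4A-AS1, and the lists carry no strand. KDM4B had 6.42 and 3.59, and KDM7A had 2 pairs, the stronger with 7.26 and 5.60.

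The PRDM genes had 25 and 16 peaks and 16 shared pairs in 8 genes. PRDM16, a regulator of brown fat identity, had 4 pairs. The strongest had 16.4 and 7.62 in the 3′ UTR, 283 nt past the stop codon, and 2 others lay further along the same exon of 4945 nt. PRDM15 had 11.2 and 8.88 and PRDM4 had 10.5 and 9.02. PRDM1, the plasma cell regulator BLIMP1, had 2 pairs, the stronger with 10.7 and 5.79 at codon 327 of 839. PRDM2 had 4 pairs, 3 of them in exon 8 of 4414 nt. PRDM11 had 2 pairs, the stronger with 7.97 and 7.02. PRDM10 had 1 with 7.51 and 3.50 and PRDM8 1 with 4.23 and 4.58.

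Over all members, the 175 peaks of replicate 1 had a median fold enrichment of 5.22 (quartiles 3.96 and 7.68), and the 117 of replicate 2 had 4.76 (3.50 and 6.43). The medians of all exonic peaks in protein-coding genes were 5.21 and 4.72. Single peaks of members were thus about as strong as those of all genes. The strongest pair per gene had a median geometric mean of 7.48 in the 39 members and 6.52 in all 6613 protein-coding genes with a pair, and it was above 10 in 20.5% and 16.4%. This value is the largest of all pairs of a gene, so it tends to be higher where a gene has more pairs. Members had more pairs per gene, as given next, and the comparison was not matched for that number. Of the 39 members with a peak in both replicates, 17 had 3 or more shared pairs (43.6%) and 7 had 5 or more (17.9%). Among all protein-coding genes with a shared pair, 16.8% had 3 or more and 2.57% had 5 or more. Over the whole sets, 3 or more pairs were found in 29.8% of the 57 members and in 5.55% of all protein-coding genes. Members with a pair had a median of 0.209 shared pairs per kb of union exon sequence, against 0.259 for all protein-coding genes with one. Only genes with a pair entered these medians, and lengths were not matched. A short gene with 1 pair has a high value per kb and a long gene with 1 pair a low one. Whether the number of pairs in members follows from their length was not tested. KMT2D, with the most pairs, had 0.393 per kb, below SETD1B (0.935), SETD1A (0.573) and KDM8 (0.497).

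To examine agreement between the replicates, the shared pairs were compared. In replicate 1, 114 of 175 member peaks had an overlapping partner in replicate 2 (65.1%, Wilson interval at 95% confidence 57.8% to 71.8%). In replicate 2, 113 of 117 had one in replicate 1 (96.6%, 91.5% to 98.7%). Such intervals cover counting error only, and peaks of 1 gene are not independent. The values over all protein-coding exonic peaks were 60.6% and 95.9%. The summits of the 111 pairs lay a median of 24 bp apart, and 78 (70.3%) were within 50 bp. Replicate 1 was higher in 95 pairs (85.6%), with a median log2 ratio of 0.39 (quartiles 0.09 and 0.71). The same ratio over 10853 pairs of all protein-coding genes was 0.44, with 80.6% higher in replicate 1.

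The widest gaps towards replicate 1 were in SETD2 exon 21 (log2 ratio 2.58), KDM5C (1.63), 2 pairs of SETD1B (1.34 and 1.22) and NSD3 exon 2 (1.18). Only 16 pairs went the other way. The PRDM2 pair in exon 8 at codon 1514 went furthest, with 4.16 in replicate 1 and 7.97 in replicate 2 (log2 ratio −0.94). It was followed by KDM5A at 836 nt past the stop codon (2.37 and 3.73, −0.65) and a KMT2C exon 36 pair (2.44 and 3.64, −0.58). SETD1A exon 15 (−0.42) and a PRDM16 3′ UTR pair (−0.30) came next.

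Where the marks lay along the transcripts was asked next. On the transcript with the longest CDS, 67.5% of 160 summits of replicate 1 (interval 59.9% to 74.3%) and 70.3% of 111 in replicate 2 (61.2% to 78.0%) were in the CDS more than 200 nt from the stop codon. The CDS made up 64.7% and 66.2% of the length of the same transcripts, so CDS summits were near their share of length. The stop codon window, 200 nt to either side, held 16.25% of summits in replicate 1 (11.3% to 22.7%) and 18.02% in replicate 2 (11.98% to 26.2%), with 5.34% and 5.07% of the length. The rest of the 3′ UTR held 10.6% and 8.11%, below its 25.5% and 24.5% of the length. All protein-coding summits were in the CDS in 49.4% and 48.2% and in the stop codon window in 24.5% and 27.1%. Their CDS made up 46.1% and 45.4% of the length and the window 11.1% and 10.5%.

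**Figure D4:**
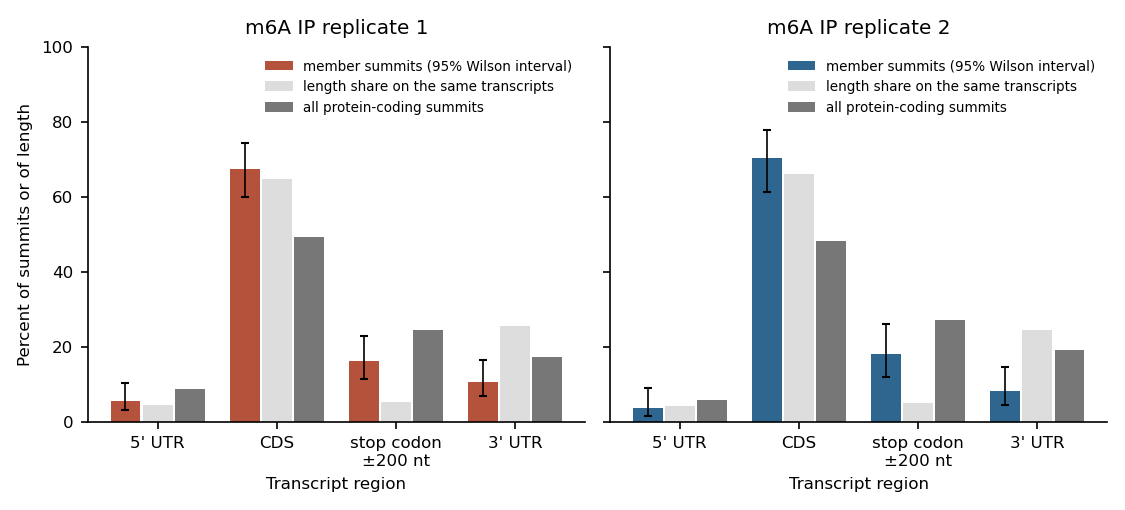
The y axis gives the percent of summits, or of transcript length, in the 5′ UTR, the CDS, the window of 200 nt around the stop codon and the rest of the 3′ UTR, with 1 panel per replicate. Coloured bars are the histone methylation genes with 95% Wilson intervals, light bars the length share of the same transcripts and dark bars all protein-coding summits. The stop codon window held 16.25% and 18.02% of member summits on 5.34% and 5.07% of the length.

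Of the 111 pairs, 77 were in the CDS by the summit of replicate 1, 16 in the stop codon window, 9 in the 3′ UTR, 3 in the 5′ UTR and 6 in exons outside the transcript. The 3 pairs in the 5′ UTR belonged to KMT2D, SETD1B and KDM5A. The stop codon window held the strongest pair of SETD6, PRDM15, KMT5C, SETD7, NSD2, KDM2B, KDM7A, KDM5B and KDM4B.

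Exon length was examined because these genes have many long internal exons. Internal exons held 63.1% of member summits in replicate 1 and 64.9% in replicate 2, against 35.6% and 31.7% over all protein-coding genes. Last exons held 48 of 160 and 34 of 111 member summits, against 48.4% and 56.5% over all protein-coding genes. Internal exons of 400 nt or more alone held 43.1% (35.7% to 50.9%) and 55.0% (45.7% to 63.9%) of member summits, against 18.5% and 23.9%. Exons of 400 nt or more of any kind held 75.6% and 87.4%, close to the 75.1% and 88.9% of all protein-coding genes. Such exons made up less of the transcript length in members, 62.2% and 62.6%, than over all protein-coding genes, 67.6% and 71.4%.

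Counted exon by exon in the 39 members with a peak in both replicates, a summit in both replicates was found in 3 of 616 internal exons under 200 nt and in 7 of 113 of 200 nt to under 400 nt. It was found in 21 of 28 of 400 nt to under 1000 nt and in all 24 of 1000 nt or more. The other protein-coding genes with a peak in both replicates had 0.525%, 5.70%, 69.6% and 89.7% in the same classes. Among genes with a peak, the step with exon length in members was thus near that of the other genes. Over all genes, with or without a peak, the 2 longest classes had a summit in both replicates in 65.6% and 24 of 24 for the 57 members, against 39.2% and 58.6% for the other protein-coding genes. In genes with a peak, exons of 400 nt or more were 52 of 781 internal exons in the 39 members (6.66%) and 2842 of 63836 in the other genes (4.45%). Over all genes these shares were 5.89% and 2.81%.

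**Figure D5:**
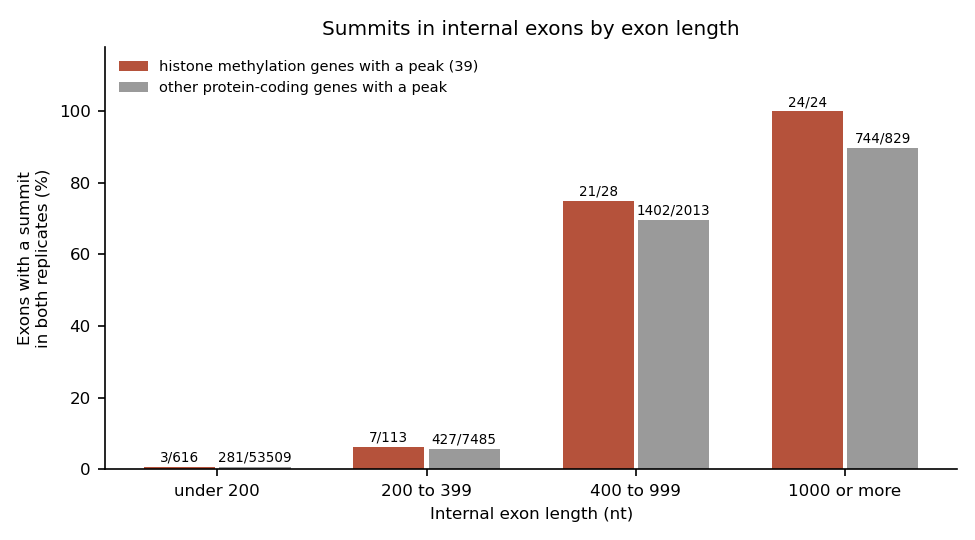
The x axis gives 4 classes of internal exon length in nt and the y axis the percent of exons with a summit in both replicates. Red bars are the 39 histone methylation genes with a peak in both replicates and grey bars the other protein-coding genes with one, with the numbers of exons above. The share rises from 3 of 616 exons under 200 nt to 24 of 24 exons of 1000 nt or more.

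The 24 internal exons of 1000 nt or more belonged to 13 genes. The 7 internal exons of 400 nt to under 1000 nt without a summit in both replicates were KDM2B exons 11 and 19, KDM4B exon 13, KDM5B exon 24, PRDM11 exon 7, SETD1A exon 8 and NSD2 exon 7. KDM2B exon 11 had a summit in replicate 2 alone, and KDM2B exon 19 and NSD2 exon 7 in replicate 1 alone. SETD1A exon 8 held no summit, but in both replicates the SETD1A peak with its summit in exon 7 reached into it.

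The motif was counted around every summit. GGAC was found within 50 nt of 76 of 175 member summits in replicate 1 (43.4%, 36.3% to 50.8%) and of 56 of 117 in replicate 2 (47.9%, 39.02% to 56.8%). Its reverse complement GTCC, which marks the same letters on the opposite strand, was found near 33.1% and 26.5%. All protein-coding summits had GGAC in 49.8% and 51.8%, somewhat above the shares of the members. In SETD5 and SETD1B, 3 GGAC motifs lay within 50 nt of the summit of the pair shown above.

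Other genes of the same pathways were counted in the same way. Of 15 lysine methyltransferases with other symbols 10 had a peak in both replicates (bins 6.22). SETDB1, which trimethylates H3K9, had 16.0 and 9.32, and DOT1L, the H3K79 enzyme, had 5.65 and 3.49. Of 7 further demethylase family genes 6 had one (bins 3.02), which included PHF8 with 6.89 and 6.88. PRC2 partners had 5 of 9 (bins 3.94), with EED at 5.07 and 4.20 and SUZ12 at 3.25 and 3.85. COMPASS partners had 7 of 12 (bins 4.71), with HCFC1 at 7.69 and 6.45. Arginine methyltransferases had 5 of 9 (bins 3.62), with PRMT9 at 19.2 and 13.1.

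The SMARC, ARID and CHD chromatin remodelling genes, another class of long chromatin genes, had a peak in both replicates in 16 of 32, where the bins gave 14.3. Their median union exon length was 10455 nt, against 9463 nt for the members. In the stop codon window they had 17.9% and 16.7% of their summits, near the values of the members. Among their internal exons, 6 of 6 of 1000 nt or more had a summit in both replicates. No test was made of the difference between the classes.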

How the data were processed

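The study's methods describe DNase-treated, fragmented total RNA incubated with an m6A antibody and sequenced as paired ends, whereas the labels describe UV-fixed, lysed cells and a directional library kit. The methods name TopHat2 for mapping to hg38 and the submitters' processing notes name fastp and HISAT2. Both name MACS2. Versions, and whether the input served as control, are not given in the sources used here. The authors deposited 1 narrowPeak list per IP replicate. Its deposited values are fold enrichment (a ratio over the caller's background), −log10 p-value and −log10 q-value, and a score that was not used. The highest q was 0.0491 and 0.0497. Fold enrichment depends on each list's own background, so a gap between replicates need not be a gap in m6A. All contig names matched hg38 (44 of 44 and 53 of 53). The depth is unknown, and the number of peaks limits the precision.

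From these lists, summits were placed in exons of GENCODE version 44, with coordinates 1-based. A summit in exons of several genes was counted for each member. Peaks were shared at an overlap of at least 1 bp. Regions were set on the transcript with the longest CDS, which left 15 member summits of replicate 1 and 6 of replicate 2 outside. Long exons had at least 400 nt. The number given by the length bins is the sum, over members, of the share of non-member genes of the same bin (20 bins of union exon length) with a peak. Windows of 301 nt around member summits were aligned to hg38 with minimap2 2.31-r1302, and another place with at least 90% identity over at least 150 nt was called similar. Scripts were tested on simulated lists. No test was made, since only 1 group had values. Some items are not reported here. Full values were given for the 20 members with the largest geometric mean of a shared pair, members with 3 or more pairs, members with a peak in 1 replicate, and the 5 widest log2 ratios each way. Members, lists and rules were chosen with earlier results of these data known. Python 3.11.15, numpy 2.4.6, scipy 1.17.1, pysam 0.24.0, matplotlib 3.10.9 and samtools 1.23.1 were used. The alternatives were stricter q and fold enrichment, equal numbers of peaks, other overlap, bin, exon, stop codon and motif windows, and each replicate left out.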

Additional observations from a re-analysis of the deposited data

Results flagged for a closer look

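Peaks with the summit in an intron of a member were not counted as member peaks above. There were 20 such summits in replicate 1, in 11 genes with a median fold enrichment of 5.64, and 20 in replicate 2, in 7 genes with a median of 4.82. Of these 9 and 12 overlapped a peak of the other replicate. In replicate 2 the KDM4C peak, a PRDM16 peak and a SETD1B peak overlapped exonic peaks of replicate 1, which therefore counted as shared above. The intronic peaks are given because they lie outside the main measurement, and no level in control samples was available to set them against. PRDM16 held 9 and 12 of them. The strongest lay at chr1:3292763-3293554 in replicate 1 with a fold enrichment of 17.2, and at chr1:3292916-3293427 in replicate 2 with 14.9. Both were above the strongest exonic PRDM16 peak of the same replicate, at 16.4 and 7.62. In SETD4, whose only exonic peak was in replicate 1, an intronic peak had 11.3 and 9.35. Whether these summits lie in unannotated exons or in retained introns was not tested.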

How the results depend on the processing

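Of 66 values recomputed under alternatives, 55 were labelled as the same and 11 as moved. For counts and the ratio to the length bins, the same meant within 1.5 times. For the log2 ratio it meant within 1 SD over the shared pairs (0.476), and for the rest within 1 SD of the 2 replicates. With 1 replicate left out, a percentage or median must fall within that SD of the mean of both, so those labels were fixed in advance. For the percent of shared peaks the SD was wide, at 22.2. Values below are means of the 2 replicates. The 39 members with a peak in both replicates ranged from 31 (fold enrichment of 5 or more) to 43 (replicate 1 alone), and their ratio to the length bins from 1.43 to 2.01. At a fold enrichment of 5 or more, the stop codon window held 19.3% of member summits (17.1% as reported), the CDS 71.8% (68.9%) and GGAC was near 52.1% (45.6%), while the median fold enrichment was 7.03 (4.99) over 72.5 peaks per replicate (146). The last of these values follow from the threshold itself. With q of 1e-05 or less the median fold enrichment was 5.39. A stop codon window of 100 nt held 10.3% and one of 400 nt held 22.9%, exons of 200 nt or more held 94.0% (81.5% for 400 nt), and GGAC was within 25 nt of 25.8% and within 100 nt of 68.6%, which follow from the size of each window. Leaving out members with a similar place elsewhere, an alternative chosen after seeing the data, gave 37 members and a ratio of 1.60. The share of shared peaks and the log2 ratio need both lists, so no replicate could be left out there. No paired analysis was possible because the input samples with the same replicate numbers have no peak list here and the results come from no test.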
